A study of Mus musculus with 7 samples.

Results

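The genes described are the SIBLING family (small integrin-binding ligand, N-linked glycoproteins), which encodes phosphoproteins of mineralized matrix. Its 5 genes, Dmp1, Mepe, Ibsp, Spp1 and Dspp, were taken by family membership and not by their values. Of the 5, the 4 genes Dmp1, Mepe, Ibsp and Dspp are among the 19938 genes that a probe set of the array names. For Spp1 (osteopontin) the annotation used here names no probe set, and it was not analysed here. The others have 1 probe set each (10523693, 10523709, 10523701 and 10523683). Dmp1, Mepe and Ibsp lay among the 13938 genes above a low-signal filter (intensity 69.7), and Dspp lay below it.

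RNA came from the long bones of male mice aged 39 to 41 weeks. The bones, cleared of marrow and cut up, were treated in 4 rounds with collagenase and then EDTA, which leaves bone enriched in osteocytes, the cells embedded in the matrix. There were 3 mice labelled DMP1 cre Mbtps1 knockout and 4 littermate controls labelled wildtype, with 1 Affymetrix whole-transcript array per mouse. The Cre recombinase is driven by Dmp1 regulatory sequence, so deletion of Mbtps1 (site-1 protease, which activates membrane-bound transcription factors in the Golgi) is directed to osteocytes and late osteoblasts. Whether deletion also occurred in other cells of the bone piece is not shown by these data. Whether the controls carried Cre or a floxed allele is not stated in the labels.

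The family shares a tandem gene cluster and an acidic, serine-rich protein with an Arg-Gly-Asp motif that binds integrins. Secreted into bone or dentin, the proteins are phosphorylated by the kinase FAM20C and cut by proteases, and the fragments promote or restrain mineral growth. DMP1 promotes mineralization, and its loss causes rickets with phosphate wasting. MEPE releases an acidic peptide that inhibits mineral and is destroyed by PHEX. Bone sialoprotein, encoded by Ibsp, nucleates mineral and is made by osteoblasts and hypertrophic chondrocytes as well. DSPP is the major phosphoprotein of dentin. Dmp1 and Mepe are rich in osteocytes.

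Because Dmp1 and Mepe had nearly the same profile over the arrays, as described below, the start regions of the measured members are shown. RefSeq entries (build GRCm38.p6) matched 4 of the 5 members. The 250 bases before each start are printed 5′ to 3′ on the plus strand of chromosome 5, for chr5:104197325-104197574 and chr5:104202367-104202616 (starts 1 and 2 of Dmp1), chr5:104299037-104299286 (Ibsp) and chr5:104325079-104325328 (Mepe). Capitals mark the CCAAT box (CCAAT or ATTGG), its extension CCAATCA or TGATTGG, and the RUNX core (TGTGGT or ACCACA), each searched on both strands.
Dmp1 start 1: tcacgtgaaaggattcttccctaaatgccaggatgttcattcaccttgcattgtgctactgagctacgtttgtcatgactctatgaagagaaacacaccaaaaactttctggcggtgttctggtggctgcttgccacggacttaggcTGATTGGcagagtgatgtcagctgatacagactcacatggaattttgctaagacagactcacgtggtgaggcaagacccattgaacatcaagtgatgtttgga
Dmp1 start 2: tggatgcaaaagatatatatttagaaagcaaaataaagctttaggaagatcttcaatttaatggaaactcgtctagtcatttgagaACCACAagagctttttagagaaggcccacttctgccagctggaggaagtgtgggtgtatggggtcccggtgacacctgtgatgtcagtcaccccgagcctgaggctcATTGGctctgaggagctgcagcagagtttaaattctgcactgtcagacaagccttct
Ibsp: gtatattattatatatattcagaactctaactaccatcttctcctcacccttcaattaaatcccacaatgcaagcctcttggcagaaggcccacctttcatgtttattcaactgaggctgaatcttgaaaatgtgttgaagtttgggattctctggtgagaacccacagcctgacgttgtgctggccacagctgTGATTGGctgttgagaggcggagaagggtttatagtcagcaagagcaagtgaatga
Mepe: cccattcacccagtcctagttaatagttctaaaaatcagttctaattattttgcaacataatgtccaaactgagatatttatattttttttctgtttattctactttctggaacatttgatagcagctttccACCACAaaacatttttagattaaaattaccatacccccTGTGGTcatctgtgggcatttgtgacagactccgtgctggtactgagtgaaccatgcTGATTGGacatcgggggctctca

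All 4 windows hold ATTGG, an inverted CCAAT box, which 33.85% of 32851 such windows in the table also hold in either orientation. In 3 of them, Dmp1 start 1, Ibsp and Mepe, it is part of TGATTGG, found in either orientation in 7.23% of windows. The distance to the start differed, with TGATTGG beginning 103 bases before start 1 of Dmp1, 56 before that of Ibsp and 23 before that of Mepe. The RUNX core, found in 14.05% of windows, occurs at 118 and 80 bases before the start of Mepe and 164 before start 2 of Dmp1. It was not found in the window of Ibsp or of Dmp1 start 1. The TATA box (TATAAA), its variant TTTAAA, the homeodomain core TAATTA, the E box CANNTG, the MEF2 site and the AP-1 site TGANTCA were searched as well and are not marked. The MEF2 and AP-1 sites were found in none of the 4 windows. The window of Phex, a gene with a profile near that of Dmp1, held neither the CCAAT nor the RUNX letters. These matches describe letters only. Dspp had no entry.

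Facts of the whole series were few. The targeted gene Mbtps1 read 162, 149, 131 and 152 in controls 1 to 4 and 115, 107 and 154 in knockouts 1 to 3, so knockout 3 lay within the control range. The exons covered by its probe set are not known here, so these values do not check the labels. Array medians ran from 87.3 to 107.7, and control 4 stood apart with the lowest mean correlation to the other arrays (0.918). In limma, 0 of 13938 genes (0% called) fell below 0.05 after Benjamini-Hochberg adjustment, while 905 had an unadjusted p under 0.05. Of these, 379 were lower in knockouts and 526 higher, a split that became 511 and 265 after median centring and 578 and 531 after quantile normalization. The median log2 change of all genes was 0.07. The 7 arrays limit the precision of every value, and intensities of 2 genes cannot be set against each other as RNA amounts.

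Dmp1 and Mepe, the osteocyte-rich members, had lower means in knockout bone, with no overlap between the groups, and neither passed the test over all genes. On the deposited intensity scale Dmp1 read 1090.2, 927, 1012 and 2768 in controls 1 to 4 and 377, 717 and 573 in knockouts 1 to 3. Every knockout lay under every control, and control 4 was far above the other 3. The means were 1449 ± 881 (SD, n = 4) and 556 ± 171 (SD, n = 3). The log2 change (knockout minus control, log2 of intensity + 16) was -1.25 (SE 0.33, 95% interval -1.96 to -0.54), or 2.37-fold lower. It did not pass over all genes (limma, adjusted p = 0.605), although it was the 8th lowest change of the 13938. By unadjusted limma p Dmp1 ranked 49th, and the SD of its control log2 values lay at the 99.4th percentile of these genes. The exact permutation test of Dmp1 alone gave p = 0.0286 (two-sided), the smallest that the 35 splits of the arrays allow.

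Mepe read 1187, 1086, 909 and 2753 in controls 1 to 4 and 368, 705 and 528 in knockouts 1 to 3. The order of the knockouts was that of Dmp1, with knockout 1 lowest and knockout 2 highest, and control 4 was again the highest array. The means were 1484 ± 854 (SD, n = 4) and 534 ± 168 (SD, n = 3), and the groups did not overlap. Its log2 change of -1.35 (SE 0.32, 95% interval -2.04 to -0.66) was the 4th lowest of all genes, or 2.55-fold lower. It did not pass over all genes either (limma, adjusted p = 0.560), and the two-sided exact permutation p was again the smallest possible, 0.0286. By unadjusted limma p Mepe ranked 22nd, and the SD of its control log2 values lay at the 99.3rd percentile.

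Ibsp, the member with the broader expression, had overlapping groups. It read 1334, 1065, 1577 and 1514 in controls 1 to 4 and 943, 1652 and 899.7 in knockouts 1 to 3. Knockouts 1 and 3 lay under every control and knockout 2 above every control, so the groups overlapped. The means were 1372 ± 229 (SD, n = 4) and 1165 ± 422 (SD, n = 3), with a log2 change of -0.27 (SE 0.21, 95% interval -0.72 to 0.17). This difference did not pass over all genes (limma, adjusted p = 0.834), and the two-sided exact permutation test of Ibsp alone gave p = 0.343. It depended on single mice, being -0.55 without knockout 2, -0.39 without control 2, -0.15 without knockout 1 and -0.12 without knockout 3. Without control 1, 3 or 4 it was -0.28, -0.20 and -0.22. Without both controls 3 and 4, a setting added after seeing the data, it was -0.09.

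Dspp had low signal in both groups. It read 67.2, 56.8, 38.9 and 75.1 in controls 1 to 4 and 55.9, 56.7 and 72.5 in knockouts 1 to 3. The groups overlapped, with means of 59.5 ± 15.6 (SD, n = 4) and 61.7 ± 9.395 (SD, n = 3). The log2 difference was 0.06 (two-sided exact permutation p = 0.8286). Its sign turned without control 3 (-0.08), without knockout 3 (-0.04) and after quantile normalization (-0.01), and a low intensity here does not show whether the gene was expressed.

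**Figure D1:**
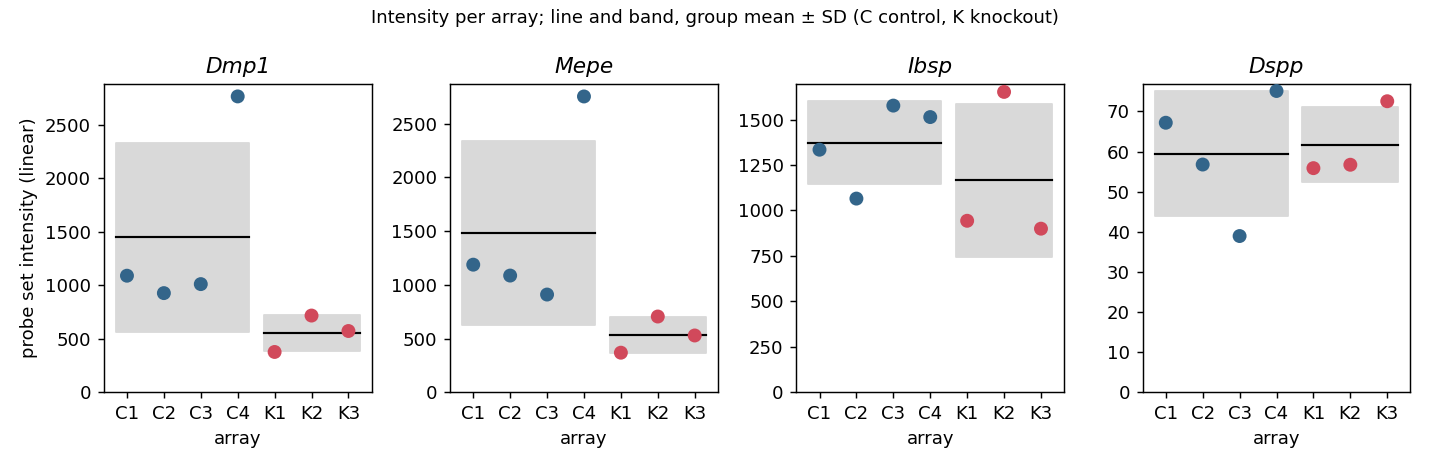
Probe set intensity (linear axis from 0) of Dmp1, Mepe, Ibsp and Dspp on each array, with controls 1 to 4 as C1 to C4 in blue and knockouts 1 to 3 as K1 to K3 in red. The line and band are the group mean and SD. Dmp1 and Mepe are highest in control 4 (2768 and 2753), and all 3 knockouts lie under all 4 controls in both, while the groups overlap in Ibsp and Dspp.

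Counted together, 2 of the 3 members above the filter had every knockout under every control, which 2.76% of all genes had. The same 2 had a lower level at an unadjusted limma p under 0.05, which 2.72% of genes had, and a change of at least 2-fold downward, which 0.172% had. None of the 3 had every knockout over every control, as 5.22% of genes did. With 3 members these shares describe the members and are not a test of the family. Control 4 was the highest of all arrays in Dmp1 and Mepe, as in 20.7% of genes. Without it the control means were 1009.8 ± 81.4 for Dmp1 and 1060.8 ± 141 for Mepe (SD, n = 3), the log2 changes were -0.89 and -1.01, and neither passed over all genes (limma, adjusted p = 0.0835 and 0.0720). The smaller spread between the remaining controls came with the smaller difference.

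Dmp1 and Mepe kept a nearly fixed ratio. Between the lowest and the highest array Dmp1 varied 7.34-fold and Mepe 7.48-fold, yet the ratio of Dmp1 to Mepe intensity was 0.918, 0.854, 1.11 and 1.01 in controls 1 to 4 and 1.02, 1.02 and 1.08 in knockouts 1 to 3. The spread of this ratio over arrays is the measurement here, since its size depends on the probes. The log2 difference between both genes changed by 0.10 from control to knockout (two-sided exact permutation p = 0.371, which is also its value adjusted over 3 pairs). Ibsp did not keep such a ratio. The ratio of Dmp1 to Ibsp was 0.817, 0.871, 0.642 and 1.83 in controls and 0.3995, 0.434 and 0.637 in knockouts. All knockouts lay under all controls, by a narrow margin between control 3 and knockout 3.

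The difference of change between Dmp1 and Ibsp was -0.97 on the log2 scale (two-sided exact permutation p = 0.0571, adjusted p = 0.129 over 3 pairs by Benjamini-Hochberg). For Mepe and Ibsp it was -1.08 (exact permutation p = 0.0857, adjusted p = 0.129), and there knockout 3 (ratio 0.587) lay above control 3 (0.577). A larger change of Dmp1 and Mepe than of Ibsp was therefore seen in size but did not pass the test, in a design of 35 splits.

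**Figure D2:**
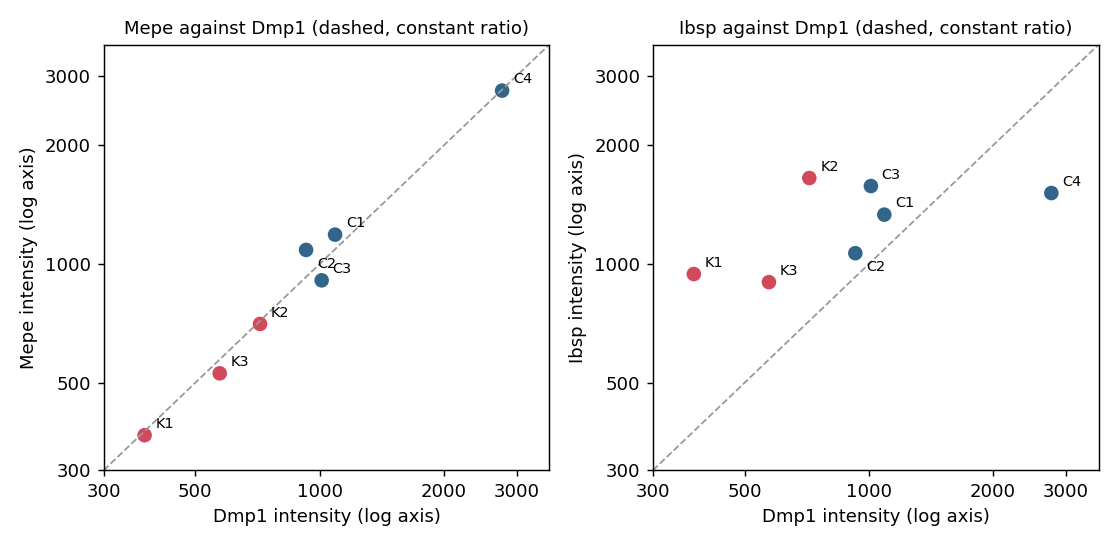
Intensity of Mepe (left) and Ibsp (right) against that of Dmp1 on each array, on log axes, with controls in blue and knockouts in red. The dashed line marks a constant ratio. The 7 arrays follow it for Mepe (ratio 0.854 to 1.11) and scatter around it for Ibsp (ratio of Dmp1 to Ibsp 0.3995 to 1.83).

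The genes with the profile most like each member were found by the root mean square difference of log2 values over the 7 arrays, each gene centred on its mean. Among 13937 genes Mepe was the nearest to Dmp1 (0.12 log2 units, against a median of 0.87 over all genes), and Dmp1 the nearest to Mepe. Prr15 (0.15), the collagen lysyl hydroxylase Plod2 (0.16), the endopeptidase Phex (0.19) and the junctional adhesion molecule Jam2 (0.19) followed for Dmp1. The next for Mepe were Phex (0.19), Prr15 (0.21), the membrane glycoprotein Tpbg (0.21) and Jam2 (0.22). Ibsp ranked 526th for Dmp1 (0.67) and 602nd for Mepe (0.71). Counted from Ibsp, whose median distance over all genes was 0.39, Dmp1 ranked only 13856th and Mepe 13882nd. These distances include the difference between the groups and the high value of control 4. After subtraction of the group means Mepe still ranked 1st for Dmp1 (0.11), without control 4 it ranked 2nd (0.13) and without controls 3 and 4 it ranked 3rd (0.12), with Dmp1 1st for Mepe in each.

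The genes nearest to Dmp1 show the same arrays high and low. Prr15 read 133, 152, 161 and 437 in controls 1 to 4 and 51.6, 87.9 and 86.9 in knockouts 1 to 3. Plod2 read 371, 282, 410.0 and 789 in controls and 131, 251 and 175 in knockouts. Both had all knockouts under all controls, as selection by likeness to Dmp1 favours, so their changes (-1.24 and -1.19) are no separate evidence. For Ibsp the nearest were the collagen chaperone Serpinh1 (0.14), the peptide-processing enzyme Cpe (0.15), the ERK phosphatase Dusp6 (0.15), Gask1b (0.16) and Ndrg3 (0.16). Serpinh1 read 402, 334, 450 and 556 in controls and 292, 495 and 337 in knockouts. Knockout 2 was its highest knockout, as in Ibsp, but lay under control 4, which it did not in Ibsp. Serpinh1 ranked 3rd for Ibsp without control 4, 4th without controls 3 and 4 and 6th after subtraction of the group means.

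**Figure D3:**
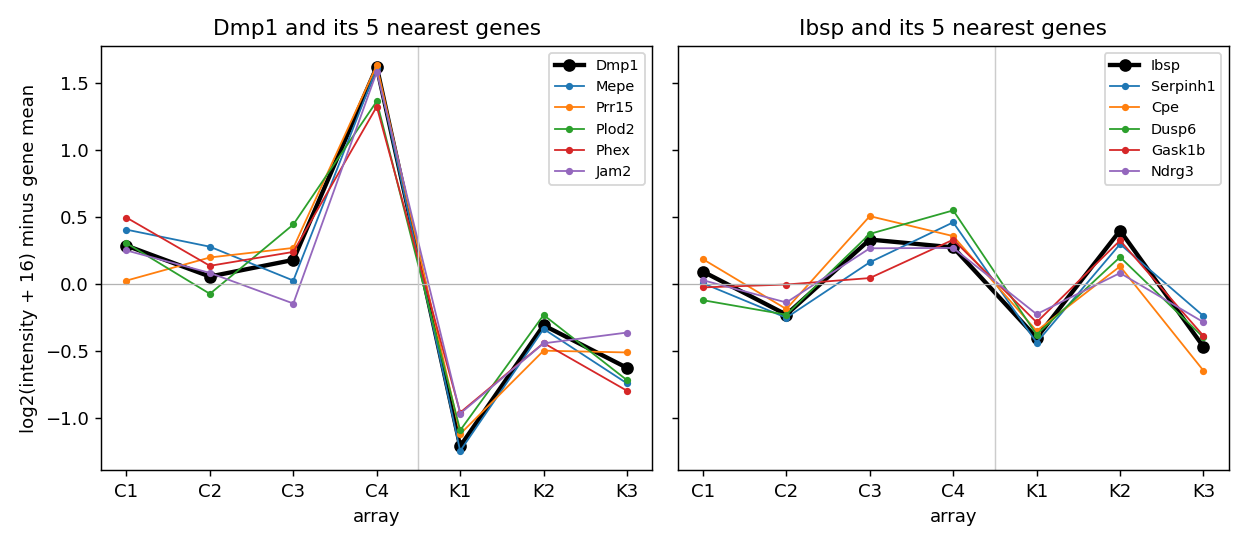
Log2(intensity + 16) minus the gene's mean over the 7 arrays, for Dmp1 (left) and Ibsp (right) in black with their 5 nearest genes in colour; the lines only join the arrays of 1 gene. The Dmp1 set peaks in control 4 and is lowest in knockout 1. In the Ibsp set knockouts 1 and 3 are low and knockout 2 is the highest of the knockouts.

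The members form a cluster on chromosome 5, in the order Dspp, Dmp1, Ibsp, Mepe and Spp1, with the non-coding gene Gm31048, which was not measured, between Dmp1 and Ibsp (RefSeq, GRCm38.p6). Ibsp lies between Dmp1 and Mepe, so the members that were lower are not adjacent. Of the 6 nearest flanking genes with a named probe set, 1 was lower in a similar way. Sparcl1, the secreted glycoprotein hevin from whose gene the family is thought to derive, read 261, 232, 368 and 596 in controls 1 to 4 and 165, 156 and 149 in knockouts 1 to 3. Control 4 was again the highest and no knockout overlapped a control. Its log2 change was -1.05 (SE 0.25), with an adjusted p of 0.560 in limma and p = 0.0571 in the two-sided exact permutation test, and it was -0.61 without controls 3 and 4. The flanking genes Nudt9 (-0.07), Hsd17b11 (0.06), Thoc2l (0.01) and Abcg3 (-0.04) had changes near 0, and Zfp951 one of 0.36, and none passed (limma, adjusted p of 0.787 to 0.990).

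**Figure D4:**
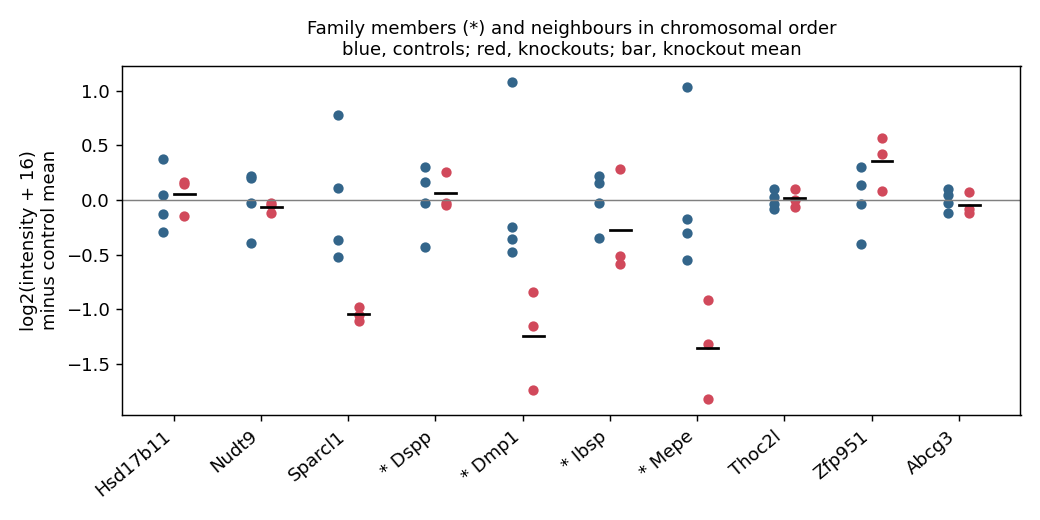
Log2(intensity + 16) minus the control mean for members (asterisk) and flanking genes in their order on chromosome 5, evenly spaced and not to scale, with controls in blue, knockouts in red and a bar at the knockout mean. Sparcl1, Dmp1 and Mepe have all knockouts under all controls (mean changes -1.05, -1.25 and -1.35), and the genes between and beside them do not.

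Among proteins that modify or cut the family's products, 12 of 16 listed genes were above the filter, among them the targeted gene Mbtps1 (-0.23). Of these, 4 were lower at an unadjusted limma p under 0.05 (2.72% of all genes were) and 0 were higher (3.77% of all genes), with a median log2 change of -0.14 against 0.07 over all genes. None passed over all genes. Phex, which degrades the acidic peptide of MEPE, read 631, 488, 526 and 1130.2 in controls and 220, 322 and 249 in knockouts (log2 change -1.28, SE 0.25). Fam20c, the kinase of these proteins, read 173, 128, 151 and 262 in controls and 99.3, 129 and 102 in knockouts (-0.59, SE 0.19). Knockout 2 lay just above control 2, so the Fam20c groups overlapped. Fam20a, the pseudokinase that activates FAM20C, read 193, 124, 170 and 295 in controls and 103, 92.8 and 107 in knockouts (-0.79, SE 0.21), without overlap. Mmp2, a matrix gelatinase, had -0.45. Adjusted limma p-values of these 4 lay between 0.560 and 0.744.

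Of 15 listed transcription factors that act on bone matrix genes, 11 were above the filter. In this list 4 were lower at an unadjusted p under 0.05 (2.72% of all genes were) and 0 were higher (3.77% of all genes). The median log2 change was -0.39 against 0.07 over all genes. The vitamin D receptor Vdr read 249, 183, 326 and 414 in controls and 114, 198 and 160 in knockouts (-0.80, SE 0.24), overlapping through knockout 2. Mef2c, a factor that drives osteocyte expression of Sost, read 659, 543, 619 and 1008 in controls and 472, 464 and 432 in knockouts (-0.58, SE 0.19), without overlap. The osteoblast factors Dlx5 (-0.61) and Sp7 (-0.52) had the next smallest p, and none of the 11 passed over all genes (limma, adjusted p of these 4 between 0.635 and 0.765). For Runx2 no probe set is named in the annotation used here.

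The receptors were also examined. Of 10 listed integrin and CD44 receptors of the family, 8 were above the filter, and 0 were lower or higher at an unadjusted p under 0.05 (2.72% and 3.77% of all genes were), with a median of 0.01. In a list of this size that count is near the share over all genes, and no difference between lists was tested. Itgav (-0.26) and Itgb3 (0.33), the chains of the osteoclast vitronectin receptor, Cd44 (-0.23) and Itga4 (0.20) had the smallest p, and their groups overlapped. Of 7 listed enzymes and transporters of phosphate and pyrophosphate, 6 were above the filter and 0 were lower or higher at that threshold, with a median of 0.06. Slc20a1 (0.27), Ank (-0.18), Alpl (-0.27) and Phospho1 (0.14) led by p. Of 16 other acidic or mineral-binding secreted proteins, 8 were above the filter, 2 were lower (Sparcl1 and Omd, -0.38) and 0 higher, with a median of -0.09. Sparc, the abundant matrix relative of Sparcl1, had -0.23 and the milk protein gene Csn2 0.23, and neither passed.

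Osteocyte markers outside the family differed in both directions. All 11 listed were above the filter, and 6 of them were lower and 1, Tnfsf11 (0.30), higher at an unadjusted p under 0.05, against 2.72% and 3.77% of all genes. None passed over all genes in limma. The list was chosen with earlier results of these data known, so its count is no separate evidence. The median log2 change of the 11 markers was -0.53, with 8 below 0 (32.3% of all genes were) and 3 above. Beside Tnfsf11 those above were Fgf23 (0.25) and Capg (0.16), and Pdpn was at -0.08. Among those with the smallest p, Ptprz1, a receptor phosphatase, read 152, 144, 177 and 386 in controls and 63.5, 78.2 and 56.8 in knockouts (-1.39), and Sost, which encodes the Wnt inhibitor sclerostin, read 698, 394, 451 and 1148 and 268, 257 and 279.8 (-1.15). The mean log2 level of the 11 markers was 8.46, 8.20, 8.29 and 9.05 in controls 1 to 4 and 7.88, 8.05 and 7.92 in knockouts 1 to 3, so these groups did not overlap either. In RNA from these digested bone pieces, fewer osteocytes, a different yield of the digestion and less RNA per osteocyte cannot be told apart. With this mean as a covariate the log2 change was -0.15 for Dmp1, -0.31 for Mepe, -0.35 for Sparcl1 and 0.0036 for Ibsp. The mean itself differs between the groups, so that fit removes part of any group difference.

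Markers of other cells were measured beside these. The mean log2 level of 8 erythroid markers ranged from 9.36 (control 4) to 10.3 in controls and from 10.1 to 10.2 in knockouts, and that of 9 B cell markers from 7.72 (control 4) to 8.68 and from 8.43 to 8.72. Control 4, highest in Dmp1 and Mepe, was thus lowest in both. Over all genes 32.3% of changes were below 0, and the median was 0.07. All 8 erythroid changes were above 0 (median 0.21), with 0 at an unadjusted p under 0.05. All 9 B cell changes were above 0 (median 0.37), with 2 higher at that threshold (3.77% of all genes were), Vpreb3 (0.63) and Pax5 (0.40). Every knockout lay over every control in Pax5, as in 5.22% of all genes. With the erythroid mean as a covariate the changes were -0.94 for Dmp1 and -1.04 for Mepe (limma, adjusted p = 0.0772 for both). Osteoblast markers (9 of 12 above the filter) ranged from 8.64 to 9.38 in controls and 8.49 to 8.86 in knockouts, with 8 of 9 changes below 0. Of these 9, 4 were lower at an unadjusted p under 0.05 (2.72% of all genes were) and 0 were higher (3.77% of all genes). The 4 were Postn (-0.83), Serpinf1 (-0.51), Sp7 and Dlx5. Of the 9, only Postn had every knockout under every control, as 2.76% of all genes had. Hypertrophic and other cartilage markers ranged from 7.04 to 8.08 (control 4) in controls and were 7.56, 8.04 and 7.19 in knockouts 1 to 3. Of the knockouts, knockout 2 was highest here as in Ibsp, but also in the osteocyte, osteoblast, osteoclast, macrophage, neutrophil and B cell means. Over all arrays control 4 was highest in the cartilage mean and knockout 2 in Ibsp. Col10a1, a hypertrophic marker, was highest in knockout 1 (165). Osteoclast markers ranged from 8.86 to 9.17 and 8.85 to 9.19. At the same threshold 2 of 6 endothelial markers were lower (Emcn, -0.58, and Tek, -0.26), as were 2 of 10 neutrophil markers (Ngp, -0.22, and S100a9, -0.18) and 1 of 5 adipocyte markers (Cidec, -0.93). Of 7 cartilage markers 1 was lower (Comp, -0.82), and of 7 osteoclast markers 1 was higher (Ocstamp, 0.32). Over all genes 2.72% were lower and 3.77% higher at this threshold. None of the markers named here passed over all genes in limma. The part of these cells in the differences was not tested.

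**Figure D5:**
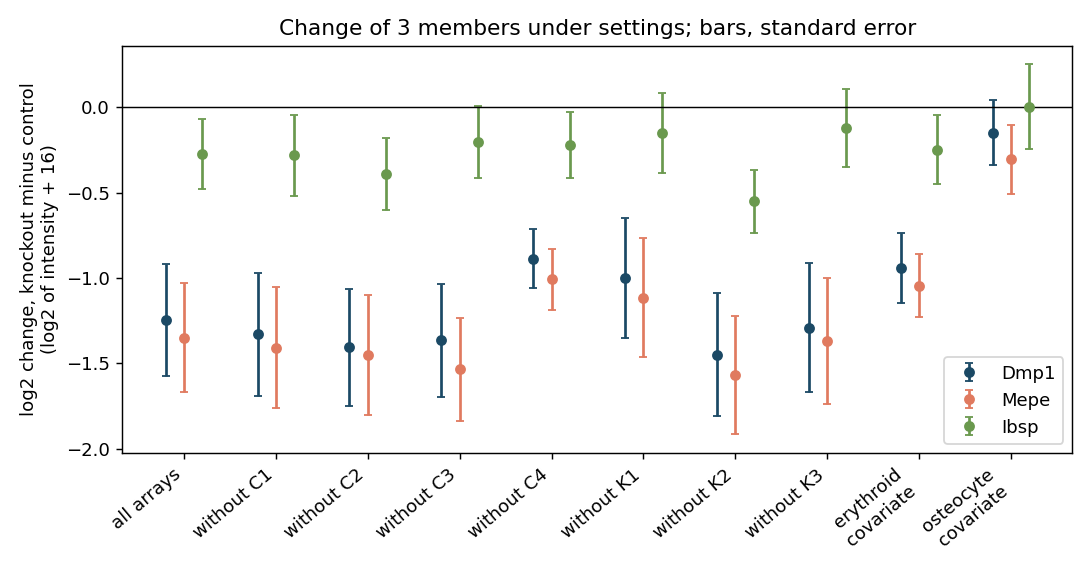
Log2 change (knockout minus control, log2 of intensity + 16) of Dmp1, Mepe and Ibsp with all arrays, without each array in turn (C control, K knockout) and with the erythroid or osteocyte marker mean as a covariate; bars are standard errors. Dmp1 stays between -1.45 and -0.89 and Mepe between -1.57 and -1.01 without any 1 array, and with the osteocyte covariate they are -0.15 and -0.31.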

How the data were processed

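The authors deposited a linear intensity for each probe set in each mouse (4 controls, 3 knockouts). The submitters' processing notes name PLIER and Affymetrix Expression Console 1.4. How background and differences between arrays were handled is not given in the sources used here. Per the labels' protocols, 30 ng of RNA was amplified per array.

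Probe sets naming 1 gene (21789 of 35556) were used, the one with the highest mean per gene. Genes whose mean log2 value lay under the 30th percentile were left out, which left 13938 genes. Knockout was compared with control on log2(intensity + 16) in limma 3.58.1 (R 4.3.3) with a mean-variance trend, tested on simulated data first, and p-values were adjusted over all genes. The simulations changed 200 genes, with noise drawn separately for each gene and array. The fit recovered 0% of 1.5-fold, 83% of 2-fold and 100% of 4-fold changes. The false share of the genes called was 5.14% at 2-fold and 8.26% at 4-fold. Exact permutation tests used the 35 splits of 7 arrays. All 7 mice are separate animals. No pairing of the mice by replicate number is stated in the labels, and the main fit used none.

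The members, the gene lists and the tests were chosen with earlier results of these data known. Named genes are all members, up to 4 genes per list by smallest p, up to 3 measured neighbours on each side and the 5 nearest profiles; further cell type markers were chosen after their values were seen. Figures were drawn with matplotlib 3.10.9.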

Additional observations from a re-analysis of the deposited data

Results flagged for a closer look

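Dmp1 in control 4 stood apart from the other controls. Its intensity of 2768 was 2.74 times the mean of controls 1 to 3, and on the log2 scale its gap to the next control was 0.853 of the range of the 4 controls, above Dixon's critical value for 4 samples. Chance gives such a value in about 1 in 20 groups, and 4 members were examined. For Mepe, also highest in control 4, the share was 0.760 and lay under the critical value.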

How the results depend on the processing

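Dmp1 and Mepe were lower in knockouts under all 22 alternatives run, with log2 changes of -1.45 to -0.15 and -1.57 to -0.31. Without each array in turn they ranged from -1.45 to -0.89 and from -1.57 to -1.01, and Ibsp from -0.55 to -0.12, and the count of genes past the adjusted threshold from 0 to 5. That count was 1 after median centring, 1 with robust eBayes, 5 with array weights, 4 with the erythroid and 6 with the osteocyte covariate. Among alternatives added after seeing the data it was 2 without controls 3 and 4 and 0 with unmoderated variances. With the replicate block 62 genes passed, and Dmp1 (-0.89, limma adjusted p = 0.00504) and Mepe (-1.01, adjusted p = 0.00171) were among them. Control 4 has no partner there, so the block gives the changes found without it. No pairing by number is stated in the labels. Same-numbered mice had deviations correlated at 0.0684, 0.153 and -0.53. No knockout correlated best with the control of its own number, and among the controls only control 2 did so with a knockout. Knockouts 1 and 2 correlated best with control 3 (0.233 and 0.278) and knockout 3 with control 4 (0.411). So few correlations cannot decide whether the mice were paired. With the osteocyte covariate the sign turned for Ibsp (0.0036), Ank (0.085), Cd44 (0.18), Dlx5 (0.30), Dusp6 (0.10), Fam20c (0.012), Gask1b (0.089), Hsd17b11 (-0.24), Itga4 (-0.32), Itgav (0.079), Itgb3 (-0.064), Jam2 (0.069), Phospho1 (-0.18), Serpinh1 (0.22), Slc20a1 (-0.16) and Sp7 (0.17). Values near 0 turned too. Alpl was 0.055 and Dspp -0.0085 without controls 3 and 4. Hsd17b11 was -0.0031 after median centring, -0.042 with the replicate block and -0.046 with the erythroid covariate. Thoc2l was -0.035 and Dspp -0.014 after quantile normalization, and Thoc2l was -0.046 after median centring. Without each array in turn the sign turned for Hsd17b11 (-0.042 to 0.18), Nudt9 (-0.20 to 0.0080), Thoc2l (-0.032 to 0.050) and Dspp (-0.084 to 0.16). The cause was not tested. None of the 3 pairs of members passed under the offsets, quantile normalization or the mean of probe sets.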
